A study of Mus musculus with 8 samples.

Results

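The genes described here encode the enzymes that cut, protect and crosslink the extracellular matrix, namely the matrix metalloproteinases (MMPs), their tissue inhibitors (TIMPs), the ADAMTS proteases with the ADAMTS-like proteins, and the lysyl oxidases. They were taken as the protein-coding genes whose mouse symbols begin with Mmp and a number or with Adamts, or are Timp1 to Timp4, Lox or Loxl1 to Loxl4, apart from 1 Mmp gene. The rule found 54 genes of the 52636 in the tables. It read symbols and gene type, not expression values, but it was chosen with earlier results of these data known. Livers came from 8 male wild-type C57BL/6J mice, 4 injected with AAV8-TBG-GFP (AAV8-GFP) and 4 with AAV8-TBG-AGXT (AAV8-AGXT). AAV8 is a liver-directed adeno-associated virus, and its cargo, human AGXT or the GFP control, was driven by the hepatocyte-specific TBG promoter. AGXT converts glyoxylate to glycine and thereby limits the formation of oxalate. All mice were injected at 7 weeks of age and, from 8 weeks of age, ate a diet rich in fat, fructose and cholesterol that induces metabolic dysfunction-associated steatohepatitis (MASH) for 24 weeks, so that both groups carried a virus and had the diet. Each mouse gave 1 library and is named by its animal number. The controls were 303, 311, 314 and 315, the mice overexpressing AGXT were 308, 309, 316 and 319, and values are given in this order throughout.

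Fibrous matrix accumulates in the liver when its synthesis outpaces its removal. MMPs are secreted or membrane-anchored zinc proteases that start as inactive proenzymes and cut collagens, gelatin and many other proteins, and TIMPs block their active site. ADAMTS proteases cut proteoglycans, process procollagens or act on microfibrils, and ADAMTS-like proteins resemble them but lack the protease domain. Lysyl oxidases oxidize lysines of collagen and elastin, which lets the fibres crosslink and makes them harder to degrade. In fibrotic liver many of these genes are expressed by activated stellate cells, macrophages and bile duct cells rather than by hepatocytes.

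Matrix protease, inhibitor and crosslinker transcripts were mostly lower after AAV8-AGXT treatment. Of the 54 genes, 37 had enough counts to be tested, and 4 of them fell: the protease inhibitor Timp1, the versican-cutting protease Adamts9, and Adamts7 and Adamts10. None rose. Log2 fold changes, given as AAV8-AGXT over AAV8-GFP, were below 0 for 32 of the 37 and above 0 for Mmp9, Mmp19, Timp3, Adamts15 and Adamts13, with a median of -0.68 against 0.02 over all 15248 genes tested. Calls rest on the edgeR quasi-likelihood test at a Benjamini-Hochberg adjusted p under 0.05, taken over all of those genes. By that rule 1.9% of them were called lower and 2.45% higher. At an unadjusted p under 0.05, 22 of the 37 were lower, where 12.6% of all tested genes were, and 2 were higher, namely Mmp19 and Adamts13, where 13.5% of all were. Log2 fold changes were below 0 for 47.7% of all tested genes. Levels are CPM, counts scaled to library size with TMM factors. In bulk liver RNA, fewer cells of a type and less RNA per cell cannot be told apart.

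The calls lay close to the threshold, and many were lost when a mouse was left out, as were those over all genes. Each such fit also had a smaller group, and a lost call does not tell this from an effect of the mouse. Without mouse 311, for example, Adamts7 had a log2 fold change of -0.87 against -0.81 with all mice, at an adjusted p of 0.126 in edgeR. With mouse 303, 311, 314, 308 or 319 left out, no member passed, although 17, 12, 15, 14 and 13 members, respectively, were lower at an unadjusted p under 0.05. Over all genes tested, the number called lower went from 290 to 79, 0, 4, 91 and 2 in the same fits. Without mouse 315 the count of members was 8, and without mouse 309 or 316 it was 4, beside 325, 264 and 185 genes in all. Of the 4 members called with all mice, these fits without mouse 315, 309 and 316 held 3, 2 and 3. The DESeq2 Wald test called 12 members lower and 1, Mmp19, higher, among them the same 4, and it called 6.91% of all 15248 genes lower and 7.06% higher. The direction of all 4 held in each of these fits.

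**Figure D1:**
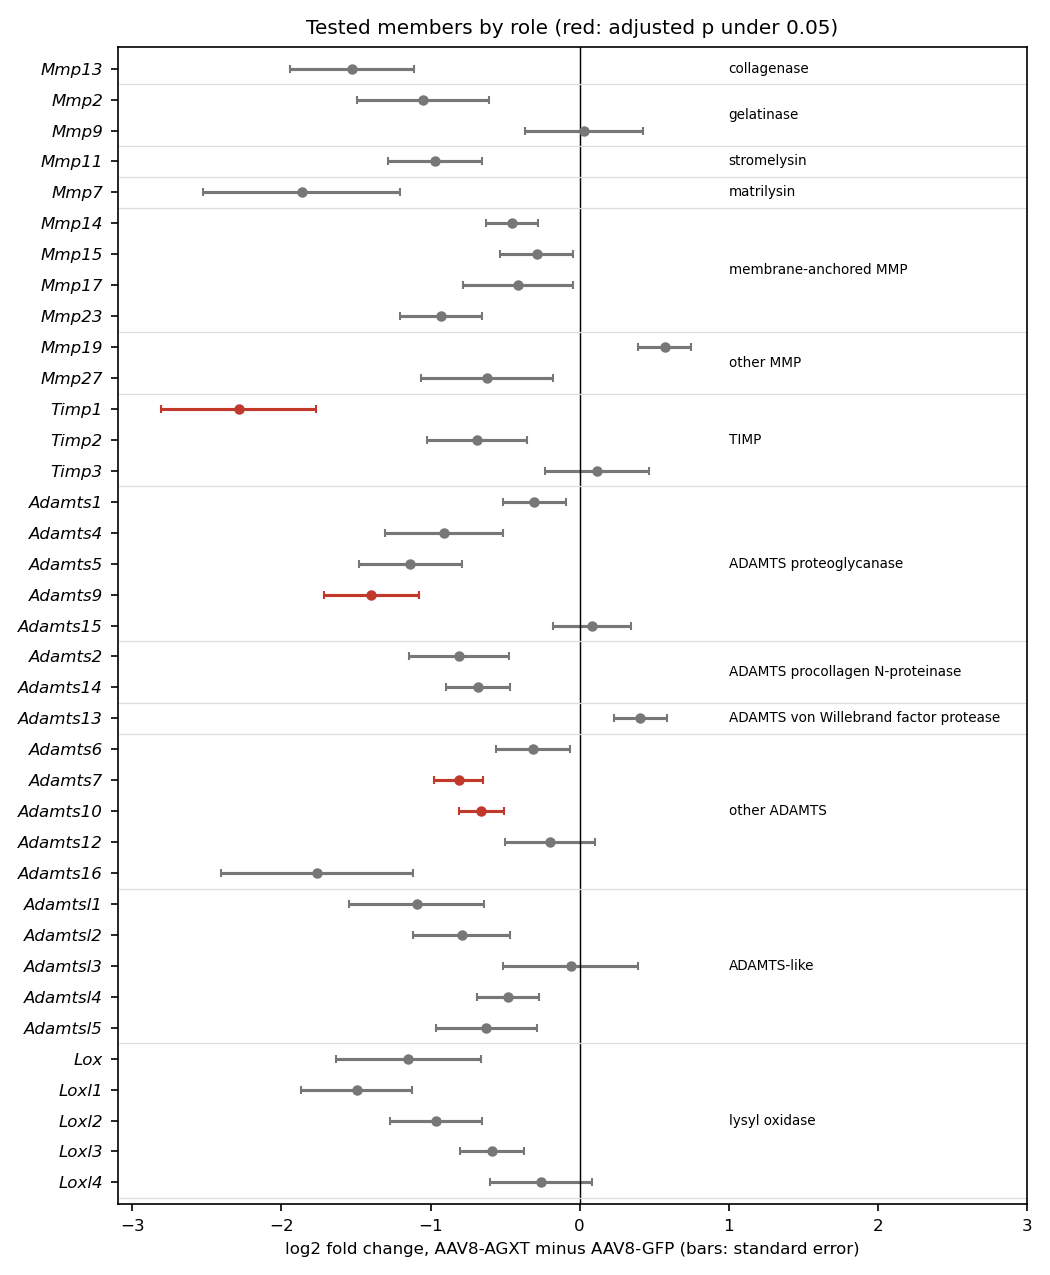
Log2 fold change of AAV8-AGXT over AAV8-GFP (x axis) for the 37 tested genes, grouped by role, with bars for the standard error from edgeR (4 mice per group) and red points for an adjusted p under 0.05. The points of 32 genes lie left of 0, and the 4 red ones are Timp1, Adamts9, Adamts7 and Adamts10.

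Timp1, a secreted inhibitor of most MMPs that activated stellate cells are known to make, had the lowest log2 fold change of the tested members. Its level was 8.40, 15.3, 17.2 and 9.04 CPM in AAV8-GFP mice 303, 311, 314 and 315, and 0.483, 3.55, 4.62 and 1.46 CPM in AAV8-AGXT mice 308, 309, 316 and 319. Each AAV8-AGXT liver was below every AAV8-GFP liver, and mouse 308 was lowest. The log2 fold change was -2.29 ± 0.52 (SE, n = 4 per group), 4.88-fold lower in AAV8-AGXT, with an adjusted p of 0.0444 in edgeR and 0.000352 in DESeq2. With all 70 arrangements of the mice, the exact permutation test, two-sided, gave p = 0.0286, the smallest that 4 against 4 allows. Per kilobase of exon, Timp1 (ENSMUSG00000001131, GRCm38 chromosome X, 20870166 to 20874735) ranked 1 among the tested members in AAV8-GFP livers at 14.1 ± 4.99 CPM per kb and 8 in AAV8-AGXT livers at 2.85 ± 2.13 CPM per kb (SD, n = 4 each). Leaving out mouse 303, 311, 314, 308, 309 or 319 took its adjusted p to 0.0636, 0.148, 0.112, 0.0545, 0.0528 and 0.109, with log2 fold changes between -2.49 and -1.98.

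The other inhibitors did not pass the test. Timp2, which inhibits MMPs and also helps Mmp14 to activate Mmp2, was at 40.7, 54.3, 54.9 and 22.1 CPM in AAV8-GFP livers and at 16.3, 38.1, 33.9 and 18.6 CPM in AAV8-AGXT livers, and the groups overlapped (log2 fold change -0.69 ± 0.33, adjusted p = 0.224 in edgeR). Timp3, the matrix-bound inhibitor that also blocks ADAMTS proteases, was at 5.66, 7.90, 9.55 and 3.71 CPM against 5.66, 11.5, 7.70 and 4.29 CPM (0.12 ± 0.35, adjusted p = 0.864 in edgeR), and the sign of this small difference changed with the scaling. On the opposite strand, 1733 bases of Timp3 exon overlap Syn3, which had 122 counts in all against 1208 for Timp3. Timp4 had 6 counts in the 8 mice and was not tested.

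Inhibitors and their target enzymes are also set side by side here as sums. The tested MMPs summed to 51.7, 60.0, 59.8 and 42.3 CPM per kb in AAV8-GFP livers and to 26.0, 47.6, 39.0 and 37.4 CPM per kb in AAV8-AGXT livers, and the groups overlapped. The tested TIMPs summed to 20.6, 32.2, 34.7 and 16.3 against 5.42, 15.2, 14.8 and 6.96 CPM per kb, without overlap. Timp1 made up between 45.9% and 62.4% of the TIMP sum in AAV8-GFP livers and between 10% and 35.1% in AAV8-AGXT livers. The quotient of MMP over TIMP was 2.51, 1.86, 1.73 and 2.59 in AAV8-GFP livers and 4.79, 3.14, 2.63 and 5.37 in AAV8-AGXT livers, where mouse 316 lay just above the highest control. These sums were formed after the values were seen, and they compare transcript levels, not protease activity.

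**Figure D2:**
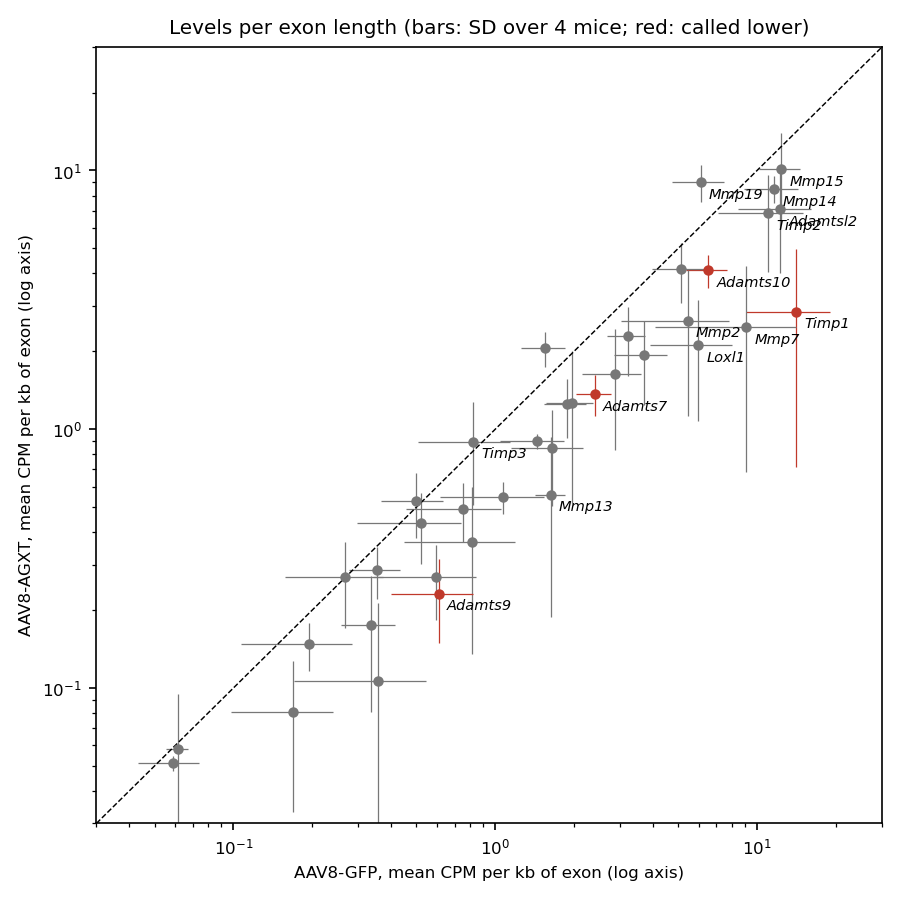
Mean CPM per kilobase of exon in AAV8-AGXT (y axis) against AAV8-GFP (x axis) livers for the 37 tested genes, both on log axes, with bars for the SD over 4 mice, cut at the axis where they reach it, a dashed line of equal levels and red points for the 4 genes called lower. Most points lie below the line, Timp1 moves from rank 1 to rank 8, and Mmp19 lies above the line.

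Promoter sequence is shown for Timp1, the called inhibitor, and for Mmp13 and Mmp7. The latter had the lowest log2 fold changes of the member MMPs, and all 3 genes are classical targets of the AP-1 transcription factor. The RefSeq promoter table (GRCm38.p6) held a window, from 250 bases before to 50 after the annotated start, for 21 of the 37 tested genes. Each line gives the 250 bases before the start, 5′ to 3′ on the strand of the gene, which is plus for all 3, in lower case with matches to the AP-1 letters TGANTCA or the TATA box letters TATAAA in capitals. Timp1 is at chrX:20869916-20870165, Mmp13 at chr9:7272264-7272513 and Mmp7, for the first of its 2 listed starts, at chr9:7691840-7692089.
Timp1: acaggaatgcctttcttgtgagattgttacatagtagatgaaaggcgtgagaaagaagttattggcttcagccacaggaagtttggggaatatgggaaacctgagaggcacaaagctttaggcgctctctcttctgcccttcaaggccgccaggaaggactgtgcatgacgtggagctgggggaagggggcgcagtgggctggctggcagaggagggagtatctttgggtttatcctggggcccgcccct
Mmp13: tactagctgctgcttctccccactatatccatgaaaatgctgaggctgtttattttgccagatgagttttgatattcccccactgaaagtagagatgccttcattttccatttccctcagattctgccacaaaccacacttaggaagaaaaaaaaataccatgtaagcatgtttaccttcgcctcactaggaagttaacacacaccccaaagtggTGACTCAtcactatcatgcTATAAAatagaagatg
Mmp7: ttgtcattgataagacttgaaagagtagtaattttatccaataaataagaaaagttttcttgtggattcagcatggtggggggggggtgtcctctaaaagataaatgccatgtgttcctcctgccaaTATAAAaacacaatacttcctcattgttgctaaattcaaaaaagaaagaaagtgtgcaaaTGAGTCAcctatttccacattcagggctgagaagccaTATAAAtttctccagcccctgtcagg
Both motifs were searched on both strands, and TGANTCA reads the same on either. The AP-1 letters began 35 bases before the start of Mmp13 and 63 before that of Mmp7, and in no other of the 21 genes was there a match. They occurred in 7.81% of all 32851 windows. TATAAA began 16 bases before the start of Mmp13 and 123 and 26 bases before that of Mmp7, and it was also found in Adamts1 and Adamtsl2, 4 of the 21 genes against 13.6% of all windows. These are letters in a window, not binding sites, and the lack of a match says only that the letters are not there.

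Among the MMPs that are members, 11 were tested and none passed. The collagenase and matrilysin genes had the lowest log2 fold changes. Mmp13, the main interstitial collagenase of rodents, was at 3.63, 5.02, 4.47 and 4.28 CPM in AAV8-GFP livers and at 0.483, 1.92, 2.67 and 0.897 CPM in AAV8-AGXT livers. The groups did not overlap, the log2 fold change was -1.53 ± 0.41, and the adjusted p was 0.0659 in edgeR, with p = 0.0286 in the exact permutation test. Over 16 alternative settings its adjusted p ranged from 0.00493, in DESeq2, to 0.192, and was under 0.05 in 5. Mmp7, or matrilysin, a small enzyme of epithelial cells including bile duct cells, was at 11.3, 13.7, 12.1 and 1.81 CPM against 0.414, 5.11, 2.62 and 2.45 CPM. Control mouse 315 was far below the other 3 controls and within the range of the AAV8-AGXT livers (log2 fold change -1.87 ± 0.66, adjusted p = 0.116 in edgeR, and 0.0489 without mouse 315).

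Stromelysin 3, encoded by Mmp11, was at 4.69, 3.0, 2.63 and 1.63 CPM in AAV8-GFP livers and at 1.45, 1.38, 1.85 and 1.42 CPM in AAV8-AGXT livers (log2 fold change -0.97 ± 0.32, adjusted p = 0.0961 in edgeR). The gelatinases, which cut denatured collagen and basement membrane, did not move alike in value. Mmp2, made mainly by stellate cells, was at 14.3, 22.8, 27.0 and 8.997 CPM against 5.66, 14.8, 11.1 and 3.78 CPM (-1.05 ± 0.44, adjusted p = 0.168 in edgeR). Mmp9, a gelatinase of myeloid cells, was scarce at 0.430, 1.16, 1.29 and 0.882 against 0.898, 0.541, 1.39 and 0.991 CPM (0.03 ± 0.40, adjusted p = 0.972 in edgeR). A test of the difference between the gelatinases was not run.

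Membrane-anchored MMPs act at the cell surface, and 4 of the 7 were tested, with log2 fold changes below 0 and none past the test. Mmp14, which activates pro-Mmp2 and cuts fibrillar collagen, was at 81.2, 74.5, 76.0 and 45.4 CPM in AAV8-GFP livers and at 42.3, 49.9, 54.9 and 55.5 CPM in AAV8-AGXT livers. Mouse 315 again lay apart from the other controls, inside the AAV8-AGXT range (log2 fold change -0.45 ± 0.18, adjusted p = 0.143 in edgeR, and 0.0399 without mouse 315). Mmp15, its close relative, was at 51.9, 68.5, 65.8 and 81.2 CPM against 34.1, 82.2, 56.8 and 45.8 CPM, with no separation of the groups (-0.29 ± 0.24, adjusted p = 0.481 in edgeR). Mmp23, an unusual type II membrane protein, had a log2 fold change of -0.93 ± 0.27 (adjusted p = 0.0765 in edgeR), and Mmp17 one of -0.42 ± 0.37 (adjusted p = 0.505).

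Mmp19, which cuts basement membrane proteins, went the other way in value. It was at 17.3, 17.6, 24.3 and 27.0 CPM in AAV8-GFP livers and at 28.3, 32.7, 27.7 and 39.0 CPM in AAV8-AGXT livers, and was the 1 member whose AAV8-AGXT values all lay above the controls. For comparison, 8.93% of all tested genes had groups that did not overlap in that direction. The log2 fold change was 0.57 ± 0.18, and the adjusted p was 0.0833 in edgeR and 0.0363 in DESeq2, with 0.0286 in the exact permutation test. On the opposite strand, 789 bases of Mmp19 exon overlap Tmem198b (log2 fold change 0.20 ± 0.18), and whether reads were counted by strand was not stated. Mmp27 had a log2 fold change of -0.62 ± 0.44 (adjusted p = 0.402 in edgeR).

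The ADAMTS proteases held 3 of the 4 called genes. Adamts9, which cuts the proteoglycans versican and aggrecan, was at 9.72, 8.82, 12.9 and 5.25 CPM in AAV8-GFP livers and at 2.76, 4.75, 4.31 and 2.12 CPM in AAV8-AGXT livers, 2.63-fold lower (log2 fold change -1.40 ± 0.32, adjusted p = 0.0449 in edgeR). The groups did not overlap, though control mouse 315 lay just above mouse 309. Adamts9 (ENSMUSG00000030022, chromosome 6, 92772699 to 92943492) shares 1381 exon bases on the opposite strand with A730049H05Rik, which had 20 counts in all. Without mouse 303, 311, 314, 308, 316 or 319 its adjusted p was 0.0804, 0.143, 0.113, 0.0891, 0.0577 and 0.107.

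Adamts7, which cuts cartilage oligomeric matrix protein, was at 17.8, 13.7, 12.8 and 16.0 CPM in AAV8-GFP livers and at 8.08, 8.47, 10.7 and 7.08 CPM in AAV8-AGXT livers. All AAV8-AGXT values lay below all controls, and neither mouse 308 nor mouse 315 stood apart (log2 fold change -0.81 ± 0.16, 1.76-fold lower, adjusted p = 0.0363 in edgeR). Adamts10, which binds fibrillin microfibrils, was at 66.0, 56.3, 48.4 and 44.0 CPM against 29.2, 31.6, 41.0 and 34.1 CPM, again without overlap (-0.66 ± 0.15, 1.58-fold lower, adjusted p = 0.0444 in edgeR). Per exon length it was at 6.502 ± 1.17 and 4.12 ± 0.616 CPM per kb (SD, n = 4 each). Adamts7 (ENSMUSG00000032363) spans 90163069 to 90208071 on chromosome 9 and shares 122 exon bases with Tbc1d2b (log2 fold change 0.05 ± 0.09), and Adamts10 (ENSMUSG00000024299) spans 33524204 to 33553782 on chromosome 17. Without mouse 303, 311, 314, 308 or 319 the adjusted p was 0.0695, 0.126, 0.0798, 0.0689 and 0.0915 for Adamts7 and 0.0792, 0.15, 0.095, 0.0891 and 0.107 for Adamts10. It was 0.0504 for Adamts7 without mouse 315 and 0.0682 for Adamts10 without mouse 309.

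**Figure D3:**
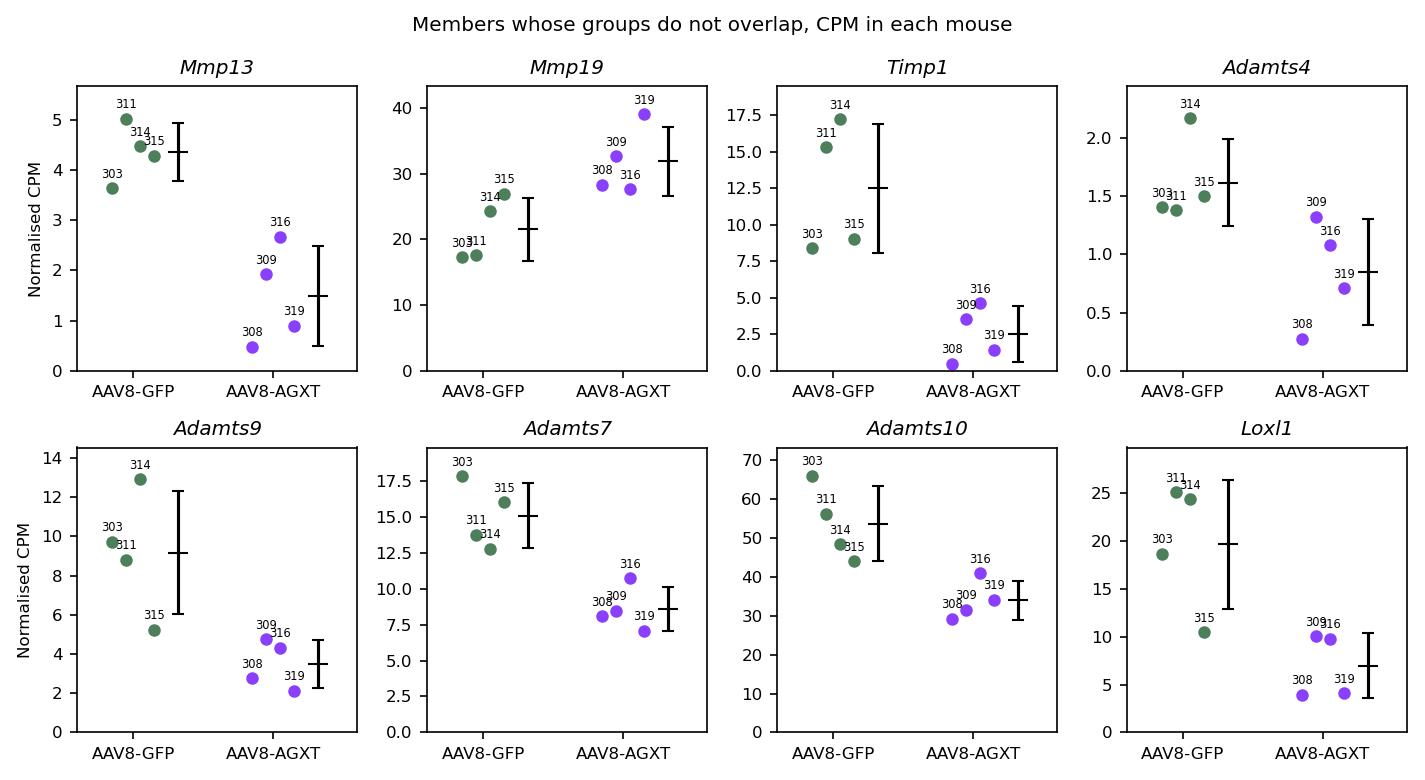
CPM in each mouse (y axis, from 0) for the 8 tested genes whose groups did not overlap, with the animal number beside each point and the mean ± SD of 4 mice to the right of it. Mmp19 is higher in the 4 AAV8-AGXT livers and the other 7 genes are lower, with mouse 308 lowest for Mmp13, Timp1, Adamts4, Adamts10 and Loxl1.

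Other proteoglycanases gave mixed values. Adamts4, an aggrecanase, was at 1.41, 1.38, 2.17 and 1.5 CPM in AAV8-GFP livers and at 0.276, 1.32, 1.079 and 0.708 CPM in AAV8-AGXT livers, a narrow separation at low counts (log2 fold change -0.91 ± 0.40, adjusted p = 0.178 in edgeR). Adamts5, the other main aggrecanase, had a log2 fold change of -1.14 ± 0.35 (adjusted p = 0.0819 in edgeR). Adamts1, the most abundant proteoglycanase per length, was at 36.3, 25.7, 22.8 and 24.3 CPM against 25.2, 28.3, 19.8 and 15.2 CPM, and the groups overlapped (-0.30 ± 0.21, adjusted p = 0.386). Adamts15 had a log2 fold change of 0.08 ± 0.26 (adjusted p = 0.870 in edgeR).

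Adamts2 and Adamts14 remove the amino-terminal propeptide of fibrillar procollagens. Adamts2 was at 24.2, 31.6, 33.1 and 18.6 CPM in AAV8-GFP livers and at 7.94, 22.5, 21.01 and 9.77 CPM in AAV8-AGXT livers (log2 fold change -0.81 ± 0.33, adjusted p = 0.160 in edgeR), and mice 309 and 316 lay inside the control range. Adamts14 had a log2 fold change of -0.68 ± 0.21 (adjusted p = 0.0856 in edgeR). Adamts13, which cuts von Willebrand factor and in the liver comes largely from stellate cells, was at 8.98, 7.38, 5.67 and 8.56 CPM against 8.98, 10.9, 11.97 and 8.73 CPM, and mouse 303 lay within the AAV8-AGXT range (0.41 ± 0.18, adjusted p = 0.185 in edgeR). Of the remaining ADAMTS genes, Adamts16 had a log2 fold change of -1.76 ± 0.65 (adjusted p = 0.123) at 0.207 to 3.44 CPM, and Adamts6 and Adamts12 had log2 fold changes of -0.31 and -0.20.

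All 5 ADAMTS-like genes were tested, with log2 fold changes from -1.09 to -0.06 and no call. Adamtsl2, which binds fibrillin and a latent TGFβ-binding protein, was at 88.8, 124.7, 120.4 and 58.9 CPM in AAV8-GFP livers and at 38.3, 83.3, 72.3 and 33.4 CPM in AAV8-AGXT livers. It ranked 3 among the tested members per exon length in the controls, and mice 309 and 316 overlapped with control mouse 315 (log2 fold change -0.79 ± 0.32, adjusted p = 0.160 in edgeR).

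All 5 lysyl oxidases had log2 fold changes below 0, and none passed the test. Loxl1, which crosslinks elastin, came nearest. It was at 18.7, 25.1, 24.4 and 10.5 CPM in AAV8-GFP livers and at 3.94, 10.04, 9.81 and 4.11 CPM in AAV8-AGXT livers, without overlap but with control mouse 315 close to mice 309 and 316 (log2 fold change -1.50 ± 0.37, adjusted p = 0.0528 in edgeR). Over 17 alternatives its adjusted p ran from 0.00185, in DESeq2, to 0.17, and was under 0.05 in 5, among them the fit without mouse 315 at 0.0404. Lox, the founding collagen and elastin crosslinker, was at 2.69, 5.82, 4.98 and 2.16 CPM against 0.552, 2.34, 2.98 and 1.13 CPM (-1.15 ± 0.49, adjusted p = 0.168 in edgeR). Loxl2, which crosslinks collagen in fibrotic liver, was at 7.58, 9.31, 12.6 and 6.26 CPM against 2.76, 6.79, 5.34 and 3.40 CPM (-0.96 ± 0.31, adjusted p = 0.0907 in edgeR). In both genes mouse 308 was lowest and mouse 309 or 316 reached the control range. Loxl3 and Loxl4 had log2 fold changes of -0.59 ± 0.22 and -0.26 ± 0.34 (adjusted p = 0.127 and 0.666).

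In 7 members, Mmp13, Timp1, Adamts4, Adamts9, Adamts7, Adamts10 and Loxl1, every AAV8-AGXT value lay below every control, as in 7.63% of all tested genes. A total of 17 members had too few counts for the test. No count was found in any mouse for Mmp1b, Mmp10, Mmp16, Mmp20, Adamts18, Adamts19 or Adamts20, where a count of 0 allows up to 3 counts, or 0.0918 to 0.207 CPM depending on the library, for counting error only. The neutrophil collagenase Mmp8 had 61 counts over the 8 mice, the stromelysin Mmp3 had 42, and the other 8 had between 5 and 81. Of the 8 members in the MMP cluster on chromosome 9, between 7272514 and 7699585, Mmp13, Mmp27 and Mmp7 passed the filter.

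**Figure D4:**
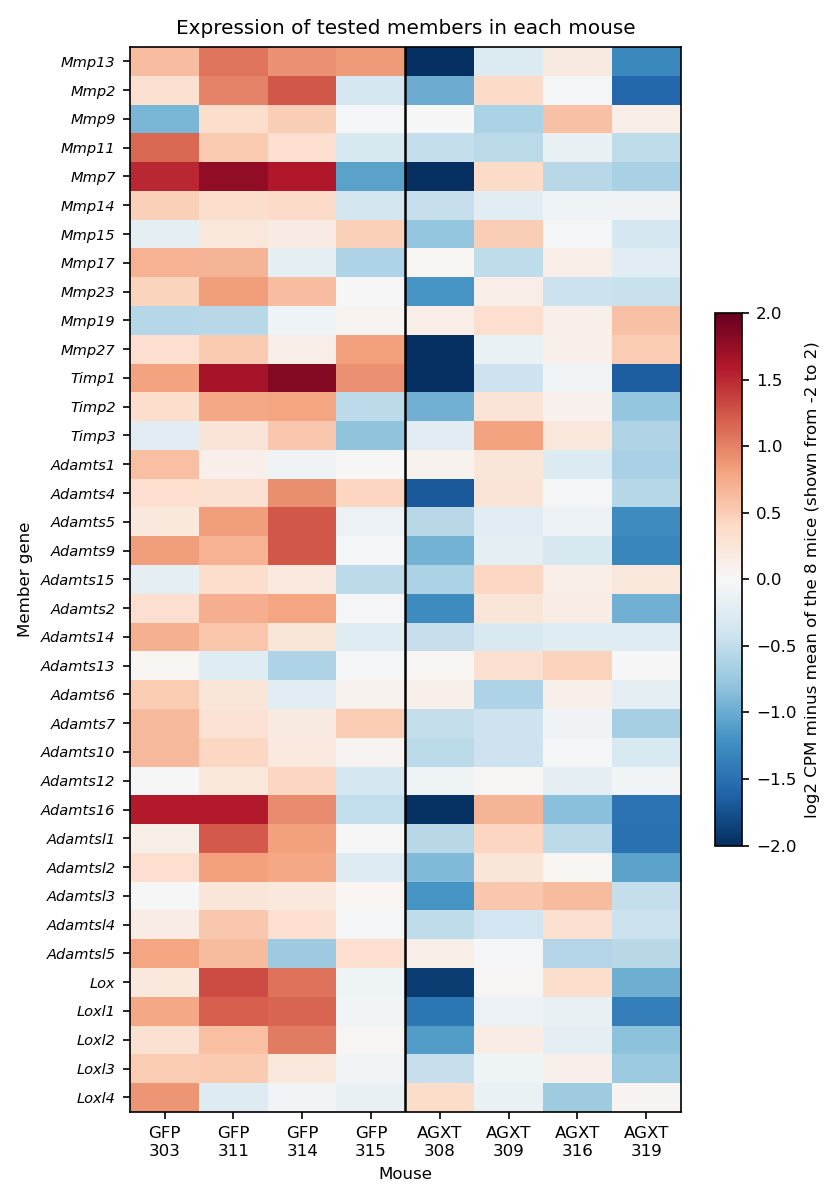
Log2 CPM of each of the 37 tested genes (rows, grouped by role) in each mouse (columns), as the difference from the mean of the 8 mice, coloured from -2 (blue) to 2 (red) with values beyond shown at the ends. Mouse 308 is lowest for 19 genes and mouse 319 for 8, and mouse 315 is the lowest control for 23.

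The mice differed within the groups as well. The mean log2 CPM of the 37 tested members was 2.91, 3.10, 3.01 and 2.44 in AAV8-GFP livers and 1.65, 2.52, 2.45 and 1.89 in AAV8-AGXT livers. Control mouse 315 was below mice 309 and 316, so that the groups overlapped on this mean. Mouse 308, the lowest, also had the smallest share of read pairs counted on genes, 56.3% against 62.4% to 69.1% in the others, and the lowest TMM factor, 0.831 against 0.886 to 1.14. Without it the log2 fold changes of Timp1, Adamts9, Adamts7 and Adamts10 were -1.98, -1.32, -0.80 and -0.61. With no TMM factor the median log2 fold change moved to -0.22 over all genes and to -0.91 over the members.

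Markers of other liver cell types had log2 fold changes on both sides of 0, and most did not pass the test. The 5 cholangiocyte markers (Krt19, Krt7, Epcam, Sox9 and Spp1) had log2 fold changes between -1.62 and -0.91, none past the test. All 5 were lower at an unadjusted p under 0.05, where 12.6% of all tested genes were. Their summed level ranged from 224.5 to 673.1 CPM in AAV8-GFP livers, lowest in mouse 315. In AAV8-AGXT livers it ranged from 74.1 to 272.5 CPM, lowest in mouse 308. Of 8 stellate cell and fibroblast markers, 6 had log2 fold changes below 0. At an unadjusted p under 0.05, 5 were lower, where 12.6% of all tested genes were. Acta2, the smooth muscle actin of activated cells, fell (log2 fold change -0.99 ± 0.22, adjusted p = 0.0427 in edgeR). It was called in 0 of 8 fits with a mouse left out and in 7 of 17 alternatives in all. Pdgfrb, Des, Col1a1, Dcn and Lum had log2 fold changes of -0.67, -0.50, -1.77, -0.15 and -1.17, none past the test. Lrat and Reln, markers of quiescent stellate cells, were at 0.11 ± 0.21 and 0.22 ± 0.17 (adjusted p = 0.786 and 0.423 in edgeR). The summed stellate and fibroblast level ranged from 374 to 600.3 CPM and from 220.6 to 469.7 CPM. Of 6 macrophage and 3 tested neutrophil markers none passed. Within the macrophage list, Trem2 and Cd68 had log2 fold changes of -1.42 ± 0.44 and -1.001 ± 0.35 (adjusted p = 0.0852 and 0.111 in edgeR), the latter without overlap between the groups, while Adgre1 and the Kupffer cell marker Clec4f were at 0.13 ± 0.38 and 0.45 ± 0.30. The sums of the macrophage and neutrophil markers ranged from 221.9 to 371.6 against 124.8 to 307 CPM and from 20.3 to 32.3 against 6.84 to 21.7 CPM. The 5 sinusoidal endothelium markers had log2 fold changes from 0.12 to 0.60, none past the test, and sums from 109.8 to 164.3 against 112.8 to 214.7 CPM. Of 3 mesothelium markers only Wt1 had enough counts to be tested (log2 fold change -0.43 ± 0.42, adjusted p = 0.547 in edgeR). Msln had 1, 18, 42 and 1 counts in AAV8-GFP livers and 0, 5, 2 and 0 in AAV8-AGXT livers. Upk3b had 0, 26, 35 and 1 counts against 1, 9, 4 and 0. The part of any of these cell types in the members' values was not tested.

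**Figure D5:**
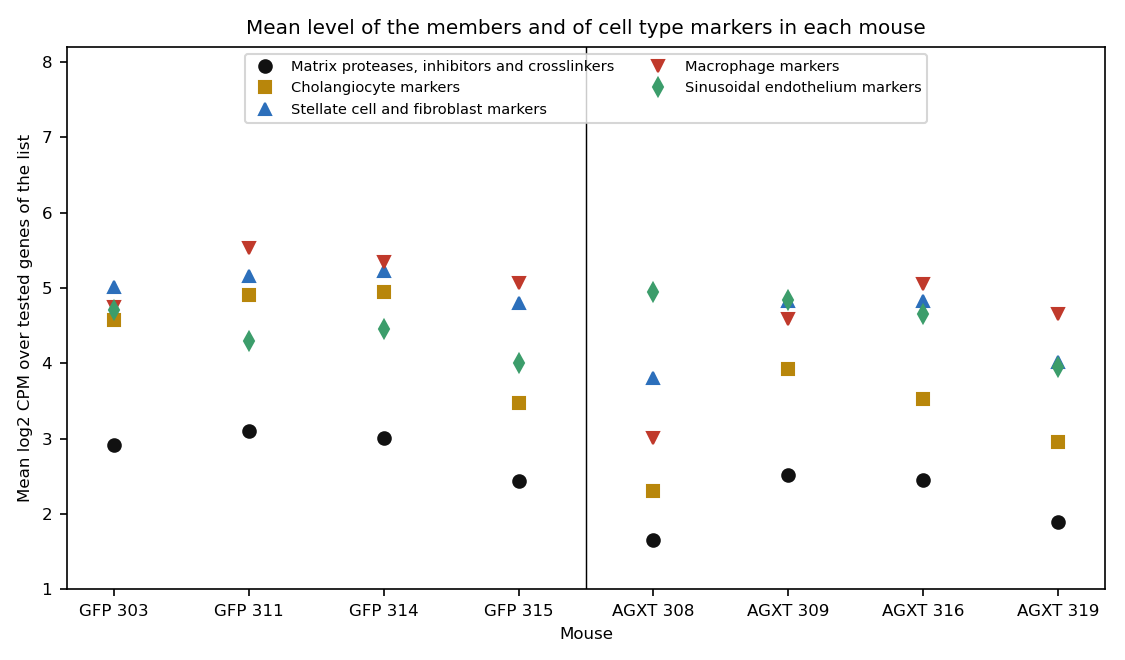
Mean log2 CPM (y axis) over the 37 tested members and over the marker lists of 4 cell types, 1 point per list and mouse (x axis), with AAV8-GFP left and AAV8-AGXT right of the line. Mice 315, 308 and 319 are the low points of their groups for the members, the cholangiocyte markers and the stellate cell and fibroblast markers, whereas the endothelium markers are highest in mouse 308.

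As a check of the labels, hepatocyte markers were abundant in every liver, with a summed level of 42230 to 50640 CPM in AAV8-GFP and 51620 to 73090 CPM in AAV8-AGXT livers. Of the 5 markers Cps1, an enzyme of the urea cycle, rose (log2 fold change 0.96 ± 0.16, adjusted p = 0.0279 in edgeR). It was called in 4 of 8 fits with a mouse left out. Of 4 pancreas markers, Amy2a5 and Cpb1 had no count and Prss2 had 8 counts in all. The fourth, Cela1, had 2278 counts and was at 9.07 to 15.7 CPM (log2 fold change -0.26 ± 0.20, adjusted p = 0.437 in edgeR). The deposited tables hold mouse genes, so the human transgene has no row of its own. Mouse Agxt averaged 163.8 ± 15.8 CPM in control livers and 305.2 ± 98.3 CPM after AAV8-AGXT (SD, n = 4 each), without overlap (adjusted p = 0.0489 in edgeR). Agxt was called in 1 of 8 fits with a mouse left out. The part of reads from the human transcript in the Agxt level was not tested.

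The partners of these enzymes in matrix turnover were read from the same fit. Of 66 partner genes on 6 lists, 60 were tested, and 4 fell and none rose, where 1.9% of all tested genes were called lower and 2.45% higher. At an unadjusted p under 0.05, 26 were lower and 7 higher, where 12.6% and 13.5% of all were. Their median log2 fold change was -0.55. DESeq2 called 19 in both directions together, where it called 6.91% of all tested genes lower and 7.06% higher. Among 12 tested genes of collagen maturation, Plod2 and Pcolce fell. Plod2, a lysyl hydroxylase that prepares collagen for lysyl oxidase crosslinks, was at 4.10, 5.51, 5.58 and 3.97 CPM in AAV8-GFP livers and at 1.38, 2.82, 2.41 and 1.604 CPM in AAV8-AGXT livers (log2 fold change -1.22 ± 0.26, adjusted p = 0.0389 in edgeR). Pcolce, which enhances removal of the carboxy-terminal procollagen propeptide, was at 27.3, 31.3, 31.2 and 21.4 CPM against 11.9, 17.1, 15.2 and 13.7 CPM (-0.94 ± 0.16, adjusted p = 0.0278), and no AAV8-AGXT liver reached a control in either gene. Bmp1, the carboxy-terminal proteinase itself, had a log2 fold change of 0.53 ± 0.17 (adjusted p = 0.0915 in edgeR).

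In the plasminogen system, whose product plasmin activates several MMPs, 1 of 9 genes fell. Plau, the urokinase activator, was at 5.47, 8.203, 7.61 and 4.90 CPM in AAV8-GFP livers and at 1.59, 2.46, 4.42 and 1.84 CPM in AAV8-AGXT livers (log2 fold change -1.34 ± 0.33, adjusted p = 0.0496 in edgeR). Plat, the tissue activator, had a log2 fold change of -1.75 ± 0.45 (adjusted p = 0.0578), and Plg, the hepatocyte-derived zymogen, one of 0.45 ± 0.18 (adjusted p = 0.143). Their groups did not overlap for Plau and Plat, and did for Plg.

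Of 15 tested matrix substrates, 14 had log2 fold changes below 0 and Vcan, the versican that Adamts9 cuts, fell from 1.29, 1.90, 3.51 and 1.72 CPM to 0.552, 0.601, 0.976 and 0.614 CPM (log2 fold change -1.59 ± 0.37, adjusted p = 0.0455 in edgeR). Col1a1, the main fibrillar collagen chain, was at 113.7, 170.2, 195.4 and 92.3 CPM in AAV8-GFP livers and at 8.35, 76.7, 48.8 and 33.1 CPM in AAV8-AGXT livers, without overlap and not past the test (-1.77 ± 0.52, adjusted p = 0.0769). Fn1, or fibronectin, which hepatocytes also secrete, was the 1 substrate above 0, at 0.49 ± 0.22 (adjusted p = 0.185 in edgeR). Mouse 308 was the lowest of the 8 for both Vcan and Col1a1.

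None of the 12 tested other matrix-degrading proteases (cathepsins, ADAMs and HtrA proteases), 7 genes of protease control at the cell surface or 5 other crosslinking enzymes passed the test. At an unadjusted p under 0.05, 3 of the proteases and 2 of the crosslinking enzymes were lower, where 12.6% of all tested genes were. In the list of protease control 2 were higher, where 13.5% of all were. Reck, a membrane-anchored MMP inhibitor, was at 2.85, 1.84, 1.71 and 2.38 CPM in AAV8-GFP livers and at 4.14, 3.55, 3.44 and 3.87 CPM in AAV8-AGXT livers, higher in all 4 without overlap (log2 fold change 0.77 ± 0.22, adjusted p = 0.0702 in edgeR). Tgm2, or tissue transglutaminase, which crosslinks glutamines to lysines, was at 229.2, 245.3, 277.5 and 246.5 CPM against 100.4, 168.1, 147.0 and 193.1 CPM, also without overlap (-0.71 ± 0.18, adjusted p = 0.0595 in edgeR). The number of called partner genes, 4, changed when a mouse was left out, as that of the members did. Without mouse 311, 314 or 319 none was called, without mouse 303 or 308 there was 1, and without mouse 316 there were 2. Without mouse 309 or 315 there were 6.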

How the data were processed

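The authors made 1 stranded mRNA library from the liver RNA of each of 8 mice and read it from both ends. By the submitters' notes and the paper's methods, reads were checked with FastQC 0.11.8, trimmed with Trimmomatic 0.35, mapped to GRCm38 with HISAT2 2.1.0 and counted on genes with HTSeq. The deposited values are raw counts per gene, and the strand setting of the counting is not given in the sources used here. Counts on genes totalled 17095433 to 28780140 per mouse. HTSeq's tallies of read pairs on no gene were left out, and genes held 56.3% to 69.1% of all tallied pairs. Symbols, exon lengths and overlaps came from GENCODE M21 for 52489 of 52636 genes.

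Counts were analysed in R 4.3.3 with edgeR 4.0.16 (filterByExpr, TMM, quasi-likelihood test, treatment as the only term, prior count 0.125), with Benjamini-Hochberg adjustment over 15248 genes at 0.05, after a test on simulated data. The p-values set the difference between the groups against the spread between mice of a group. The biological coefficient of variation common to all genes was 23.3%. Alternatives were DESeq2 1.42.0, limma 3.58.1 voom with and without quality weights, robust estimation, other scalings and filters, and leaving out each mouse. For the partner genes and the number of genes without overlap they were added after seeing the data. The members, lists and tests were chosen with earlier results of these data known. Members given in every mouse were those called, those without overlap, the highest per exon length in each role, and Mmp2, Mmp9, Mmp13, Mmp14, Timp1 to Timp3, Lox, Loxl1, Loxl2, Adamts1, Adamts2 and Adamts13. Protein sequences were not used here, and 1 Mmp gene is not reported here.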

Additional observations from a re-analysis of the deposited data

Results flagged for a closer look

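In each group of 4 mice, the 37 tested members were searched for a mouse far from the other 3, by the gap to its neighbour as a share of the group's range. Of 74 groups, 4 had such a mouse, and chance gives about 1 in 20. Mmp11 was at 1.85 CPM in AAV8-AGXT mouse 316, where the next highest was 1.45 CPM. Adamts4 was at 2.17 CPM in AAV8-GFP mouse 314 against 1.5 CPM in the next. Adamtsl4, a fibrillin-binding ADAMTS-like protein, was at 13.9 CPM in AAV8-AGXT mouse 316, within the control range, where the next highest of its group was 8.53 CPM. Loxl4 was at 3.59 CPM in AAV8-GFP mouse 303 against 1.85 CPM in the next.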

How the results depend on the processing

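The count of members lower in AAV8-AGXT, 4, was 12 with DESeq2 and 8 with limma voomWithQualityWeights, both including the same 4. The genes called lower of all tested went from 290 to 1054 and 606. The count of members was 3 to 6 with limma-voom, robust estimation, other scalings or other filters. Limma-voom called Mmp13 but not Adamts9 (adjusted p = 0.052 in limma-voom). With at least 10 counts in every mouse, Timp1 was not tested, as mouse 308 had 7 counts. Leaving out each mouse gave 0 to 8 members lower. The count of members higher, 0, was 1 with DESeq2 and with voomWithQualityWeights, Mmp19 in both, and 0 in the other settings. The 4 called partner genes became 19 with DESeq2, 14 with voomWithQualityWeights, 11 with no filter on low counts and 2 with at least 10 counts in every mouse, and 0 to 6 with a mouse left out. The number of members without overlap between the groups, 8, was 6 to 9 over the scalings and filters. The small differences of Mmp9 and Timp3 changed sign. The log2 fold change of Mmp9, 0.03, was -0.0278 with upper-quartile factors, -0.21 with total counts and no composition factor, and -0.21 to 0.21 with a mouse left out. That of Timp3, 0.12, was -0.0387 with voomWithQualityWeights, -0.11 with total counts, and -0.21 to 0.31 with a mouse left out. The cause was not tested. The other 20 members given in every mouse kept their direction in all settings in which they could be fitted, as did the called partner genes, Acta2, Cps1 and Agxt. No paired analysis was possible because the groups share no replicate numbers.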
